A study of Mus musculus with 96 samples.

Results

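The set described here is 40 G2, mitosis and spindle genes, chosen by name, and its members were followed in all 96 single cells of the series. All 40 were found by symbol among the 23955 genes of the expression table. The cells were splenocytes selected for c-Kit from 2 mice moribund with acute myeloid leukemia. Mouse 2 and mouse 1 gave 48 cells each, each cell captured on a Fluidigm C1 chip and made into 1 library. Both mice carried the same alleles, Flt3ITD/ITD;Dnmt3afl/- with MxCre: 2 copies of the internal tandem duplication in the receptor kinase gene Flt3, 1 floxed and 1 null copy of the DNA methyltransferase gene Dnmt3a, and a Cre recombinase under the interferon-inducible Mx promoter. No cell of another genotype was analysed here, so nothing below compares Flt3 or Dnmt3a genotypes. The cells of each mouse also carry their own label prefix, whose meaning the labels do not state. Mouse and any batch that the prefix marks cannot be told apart. With 1 animal a side, and cells that are not replicates, no test was made and no p-value is given. Values are TPM, a share of all transcripts, scaled to the same total in every cell.

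Genes of G2 and mitosis are made in a short window of the cell cycle. Cyclin B with Cdk1 starts mitosis, the spindle attaches to the kinetochores, the spindle checkpoint holds the anaphase-promoting complex until all are attached, and the central spindle then directs cytokinesis. Many of their promoters carry CCAAT boxes, bound by NF-Y, and a cell cycle genes homology region (CHR), usually TTTGAA, through which the DREAM complex holds them down in quiescent cells and the MYB-MuvB complex with FOXM1 turns them on in G2. In blood, leukemic and normal progenitors divide, while late neutrophils have left the cycle.

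Promoters are shown for the 4 members that correlated best, by the mean of both mice, with the other members and for 2 that correlated least, to set side by side sequences of genes that moved most and least with the set. Each window runs from 250 bases before to 50 bases after the gene's start, from RefSeq on build GRCm38.p6, in the gene's own direction. Capitals mark CCAAT and TTTGAA, and also TTTAAA, a variant CHR, read on both strands, so that ATTGG and TTCAAA are also in capitals. Cdca8 lies on the minus strand at chr4:124936868-124937167, Nusap1 on the plus strand at chr2:119618048-119618347, and Top2a on the minus strand at chr11:99024140-99024439. Plk1 lies on the plus strand at chr7:122159185-122159484, Cenpf on the minus strand at chr1:189688037-189688336, and Bub3 on the plus strand at chr7:131560120-131560419.
Cdca8: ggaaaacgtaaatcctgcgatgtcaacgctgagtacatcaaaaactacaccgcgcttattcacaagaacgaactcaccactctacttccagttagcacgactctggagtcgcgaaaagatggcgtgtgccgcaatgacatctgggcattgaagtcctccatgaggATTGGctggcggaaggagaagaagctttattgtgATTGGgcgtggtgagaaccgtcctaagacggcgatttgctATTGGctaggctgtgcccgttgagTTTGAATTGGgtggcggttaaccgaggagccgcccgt
Nusap1: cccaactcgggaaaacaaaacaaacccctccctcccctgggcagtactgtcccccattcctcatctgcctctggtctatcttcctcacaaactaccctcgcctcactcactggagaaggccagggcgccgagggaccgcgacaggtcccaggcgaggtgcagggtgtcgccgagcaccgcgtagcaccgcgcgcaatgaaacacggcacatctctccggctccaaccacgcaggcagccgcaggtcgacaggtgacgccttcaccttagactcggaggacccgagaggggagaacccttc
Top2a: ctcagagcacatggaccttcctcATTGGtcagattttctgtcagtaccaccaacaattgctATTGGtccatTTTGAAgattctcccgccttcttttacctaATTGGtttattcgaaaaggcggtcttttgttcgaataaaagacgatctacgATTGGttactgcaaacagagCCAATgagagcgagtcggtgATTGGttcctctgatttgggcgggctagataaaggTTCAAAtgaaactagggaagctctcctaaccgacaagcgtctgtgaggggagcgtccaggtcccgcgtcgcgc
Plk1: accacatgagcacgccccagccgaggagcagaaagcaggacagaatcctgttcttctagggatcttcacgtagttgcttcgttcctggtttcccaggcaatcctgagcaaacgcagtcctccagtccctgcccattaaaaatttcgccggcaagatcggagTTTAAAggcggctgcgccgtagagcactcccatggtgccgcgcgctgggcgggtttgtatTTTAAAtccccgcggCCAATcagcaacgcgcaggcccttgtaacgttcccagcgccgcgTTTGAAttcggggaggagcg
Cenpf: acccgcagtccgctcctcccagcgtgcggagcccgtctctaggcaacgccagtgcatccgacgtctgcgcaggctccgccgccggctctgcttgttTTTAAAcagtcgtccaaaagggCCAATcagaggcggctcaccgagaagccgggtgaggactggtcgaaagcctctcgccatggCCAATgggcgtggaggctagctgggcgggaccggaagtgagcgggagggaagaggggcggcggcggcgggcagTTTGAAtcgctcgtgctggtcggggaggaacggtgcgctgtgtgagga
Bub3: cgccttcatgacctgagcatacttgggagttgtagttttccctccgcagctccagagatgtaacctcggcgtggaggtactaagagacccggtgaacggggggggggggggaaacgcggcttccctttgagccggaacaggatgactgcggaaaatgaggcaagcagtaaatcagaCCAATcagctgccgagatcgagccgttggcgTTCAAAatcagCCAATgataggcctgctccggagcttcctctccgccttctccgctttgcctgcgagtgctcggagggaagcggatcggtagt

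The Top2a window held 6 CCAAT boxes and 2 TTTGAA elements, and the Cdca8 window 4 CCAAT boxes and 1 TTTGAA, where the last CCAAT (as ATTGG) overlaps the TTTGAA by 1 base. Plk1 had 1 CCAAT, 1 TTTGAA and 2 TTTAAA. Cenpf and Bub3, the members that correlated least, also had 2 CCAAT and 1 TTTGAA each, while Nusap1, among the best correlated, had none of these letters in the window. Of the 40 members, 33 were matched in the promoter table. TTTGAA was found in 26 of these 33 (78.8%), against 12.8% of the 5510 promoters whose genes averaged at least 10 TPM in these cells and 18.1% of all 27025. CCAAT was found in 78.8% of the members, against 39.7% and 37.9% of the same backgrounds. CCAAT together with TTTGAA or TTTAAA was found in 75.8% of the members, against 7.88% and 10.9%. Of 25 S phase gene promoters, 12% held TTTGAA and 60% held CCAAT. A match is a description of the letters and not of a bound site.

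The members were on together in a minority of cells and off in most. A member was counted in a cell when it reached 10 TPM, and a cell with 20 or more of the 40 members at that level is called member-high. In mouse 2, 10 of 48 cells were member-high (20.8%, exact 95% interval 10.5 to 34.99%, for the counting of cells only), and in mouse 1 also 10 of 48 (20.8%, the same interval). In mouse 2, 27 cells had 0 to 4 members, 7 cells 5 to 9, 4 cells 10 to 19, 4 cells 20 to 29 and 6 cells 30 to 40. In mouse 1, 23 cells had 0 to 4 members, 8 cells 5 to 9, 7 cells 10 to 19, 4 cells 20 to 29 and 6 cells 30 to 40. The member-high cells were a range and not a cell type, and 2 cells of mouse 2 and 4 cells of mouse 1 had 15 to 24 members, close to the limit of 20. The cells just inside it had 25 members in mouse 2 and 20 in mouse 1, and those just outside had 19 in mouse 2 and 17 in mouse 1. The most members in 1 cell were 39 of 40 in mouse 2 and 38 of 40 in mouse 1.

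The 10 member-high cells held 72.6% of all member TPM of mouse 2, and those of mouse 1 held 68%. Over both mice, the median member had 78.6% of its summed TPM in the 20 member-high cells (range 43.7 to 99.9%), while the median of all 8008 genes tested had 21.1% there. Since these cells were picked by the members, the concentration describes them and is not evidence of its own. Of the 40 members, 28 reached 10 TPM in at least 15 of the 20 member-high cells, and 6 in all 20. In the other 76 cells, 21 members reached 10 TPM in at most 5 cells and 32 members in at most 10. By the same choice, all 40 members were higher by 1 or more on the log2(TPM + 1) scale in member-high than in other cells of each mouse, where 46% of genes tested were so in mouse 2 and 34.2% in mouse 1. Nothing is read from that count.

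**Figure D1:**
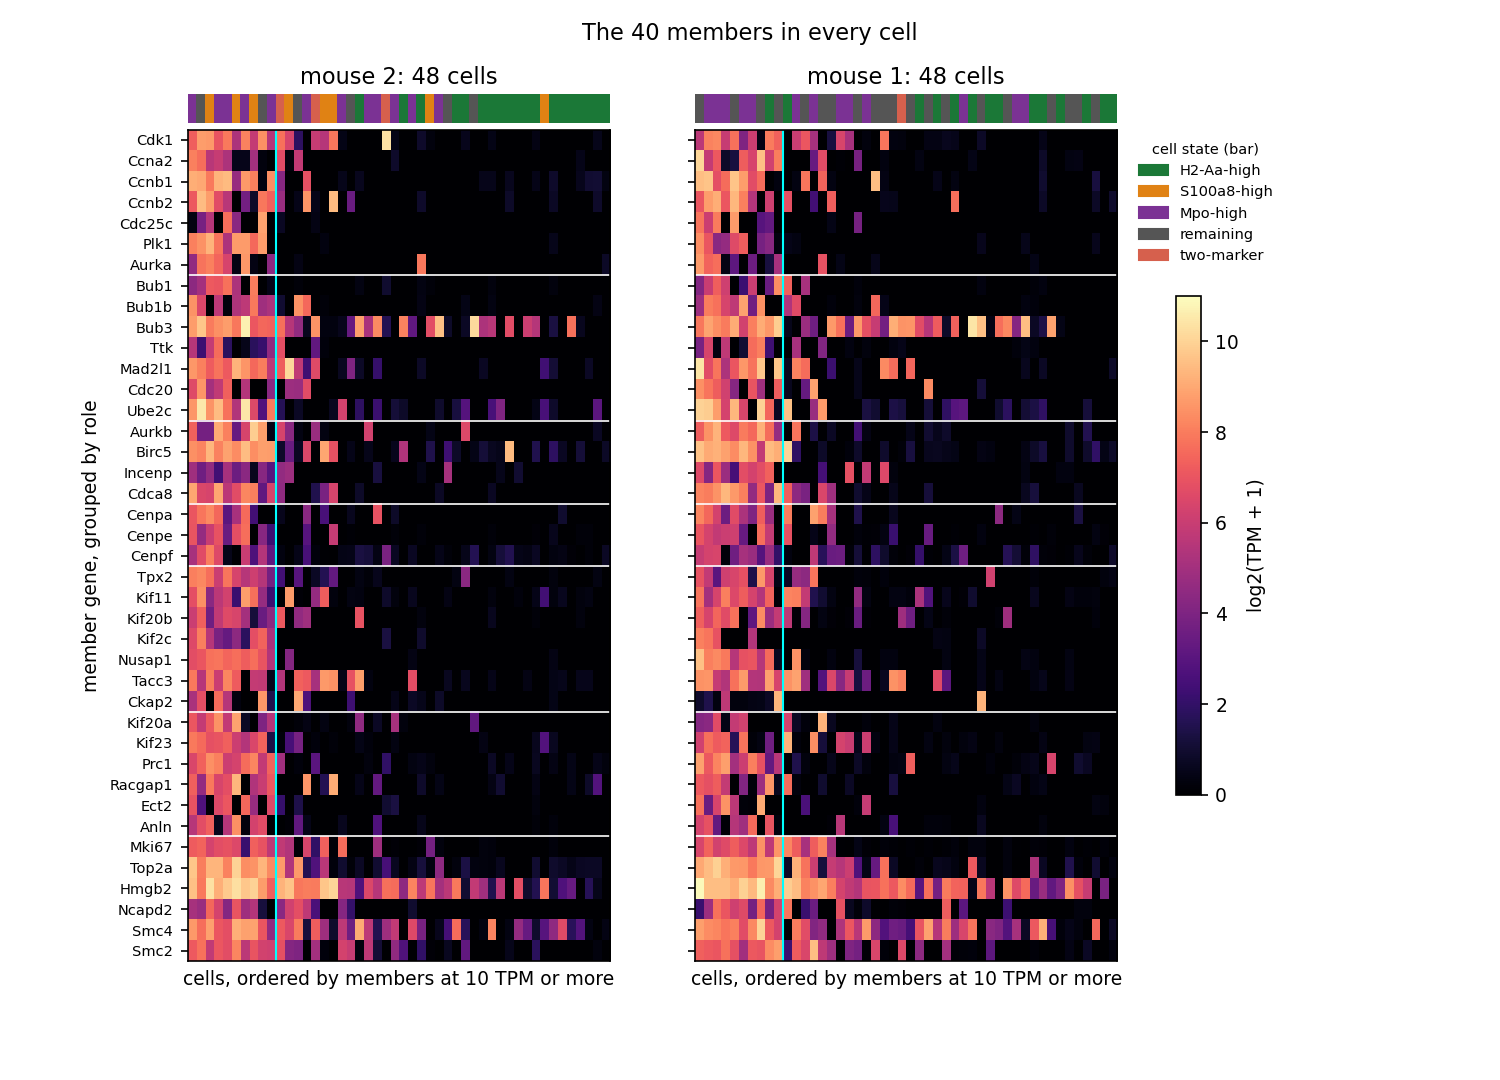
Heat map of log2(TPM + 1) of the 40 members (rows, grouped by role) in the 48 cells of mouse 2 (left) and the 48 cells of mouse 1 (right), cells ordered from most to fewest members at 10 TPM or more. The cyan line stands right of the 10 member-high cells of each mouse, the colour bar on top gives the cell state, and Hmgb2, Smc4 and Bub3 are the rows with values well beyond that line.

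The mitotic entry genes were at 10 TPM in 74.3% of their values in member-high cells. Plk1, the polo-like kinase that activates the Cdk1 machinery, had a median of 318 TPM (lowest 0, highest 606) in the member-high cells of mouse 2 and 21.4 TPM (0 to 340) in those of mouse 1. In the other cells it never exceeded 0.45 TPM in mouse 2 or 0.51 TPM in mouse 1, so 99.9% of its TPM lay in member-high cells. Its levels in the member-high cells of the mice overlapped, with the highest values in mouse 2. Cdk1, the mitotic kinase, had a median of 201 TPM (37.1 to 428) in member-high cells of mouse 2 and 116 TPM (0.32 to 311) in those of mouse 1, and reached 10 TPM in 6 of 38 other cells of each mouse. One of those, a cell of mouse 2, had the highest Cdk1 value of all, 1308 TPM. Ccnb1, cyclin B1, had a median of 370 TPM in member-high cells of mouse 2 and 196 TPM in those of mouse 1, with 17 of 20 cells at 10 TPM. Ccnb2, Ccna2 and Aurka, a further B cyclin, cyclin A2 and the centrosomal Aurora kinase, were at 10 TPM in 16, 14 and 12 of the 20. Cdc25c, the phosphatase that activates Cdk1, was seen least, in 9 of the 20, and in 1 of the 76 other cells.

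Among the spindle checkpoint and anaphase-promoting complex genes, Bub3 stood apart. Bub3, a checkpoint protein that also acts outside mitosis, was at 10 TPM in all 20 member-high cells, with a median of 297 TPM (135 to 1620) in mouse 2 and 364 TPM (74.8 to 917) in mouse 1. It was also at 10 TPM in 17 of 38 other cells of mouse 2 and 23 of 38 of mouse 1, where it reached 1155 and 1349 TPM, and only 43.7% of its TPM lay in member-high cells. Its partners Bub1 and Bub1b were at 10 TPM in 14 and 16 of the 20 member-high cells, and in 2 and 5 of the 76 others. Mad2l1, which binds and restrains Cdc20, was at 10 TPM in 19 of the 20, at a median of 238 TPM (mouse 2) and 226 TPM (mouse 1). Ube2c, the ubiquitin-conjugating enzyme of the anaphase-promoting complex, had medians of 306 TPM (mouse 2) and 298 TPM (mouse 1) and was at 10 TPM in 17 of the 20. Its activator Cdc20 was at 10 TPM in 15 of the 20, and the checkpoint kinase Ttk in 9.

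The chromosomal passenger complex corrects kinetochore attachments, and its 4 genes were at 10 TPM in 90% of their values in member-high cells. Birc5 (survivin) was at 10 TPM in all 20 member-high cells, with a median of 383 TPM (279 to 711) in mouse 2 and 540.5 TPM (55.4 to 780) in mouse 1. Outside these cells its median was 0.46 TPM in mouse 2 and 0.285 TPM in mouse 1, with single cells up to 693 and 1038 TPM, so the groups overlapped. Cdca8 (borealin) was the member best correlated with the rest by the mean of both mice, at 10 TPM in 19 of 20 member-high cells, with 92% of its TPM there. Its lowest value in a member-high cell was 8.41 TPM, and the highest in another cell 156 TPM. Aurkb, the kinase of the complex, was at 10 TPM in 18 of the 20 and 6 of the 76, and the scaffold Incenp in 15 and 6. The centromere and kinetochore genes were seen less fully. Cenpa, the centromeric histone, was at 10 TPM in 15 of the 20, the kinetochore motor Cenpe in 14, and Cenpf in 13.

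Of the spindle genes, Nusap1, a microtubule bundler, had a median of 163 TPM (40.5 to 227) in member-high cells of mouse 2 and 161 TPM (0.57 to 743) in those of mouse 1, and was at 10 TPM in 2 of the 76 other cells. Tpx2, which activates Aurora A on the spindle, and Kif11, the motor that separates the poles, were each at 10 TPM in 17 of the 20. Kif2c, a microtubule-depolymerizing kinesin, was at 10 TPM in 8 of 10 member-high cells of mouse 2 and 4 of 10 of mouse 1, and in no other cell, where its highest value was 1.5 TPM. Ckap2, a microtubule stabilizer, was the least often seen, at 10 TPM in 7 of the 20 member-high cells. Kif2c and Ckap2 were also the 2 members at 1 TPM in under 5 cells of mouse 1, with 4 cells each. Tacc3, which links the chromosome-bound microtubules, was at 10 TPM in 18 of the 20 but also in 19 of the 76 others, and had 47.6% of its TPM in member-high cells. For cytokinesis, Prc1, the bundler of the central spindle, was at 10 TPM in 19 of the 20 and 3 of the 76. Racgap1 and Kif23, its centralspindlin partners, were at 10 TPM in 16 and 15 of the 20, Kif20a and Anln in 13 each, and the cytokinesis factor Ect2 in 11.

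The chromosome structure genes were the most complete and the least restricted. Top2a, the topoisomerase of chromosome segregation, had a median of 495 TPM (257 to 1031) in member-high cells of mouse 2 and 455 TPM (241 to 1067) in those of mouse 1. In the other cells its median was 0.605 TPM in mouse 2 and 0.485 TPM in mouse 1, with 5 and 9 of 38 at 10 TPM and single cells up to 419 and 594 TPM. Mki67, the proliferation antigen that coats mitotic chromosomes, was at 10 TPM in 19 of the 20 and 13 of the 76. The condensin genes Smc4 and Smc2 were at 10 TPM in all 20 member-high cells, and in 41 and 19 of the 76. Hmgb2, a chromatin protein, was at 10 TPM in all 20, at a median of 803 TPM (mouse 2) and 735 TPM (mouse 1). It was also at 10 TPM in 56 of the 76 others, where its median was 47.6 TPM (mouse 2) and 127 TPM (mouse 1). Hmgb2, Smc4 and Bub3 were the members at 10 TPM in more than 24 cells of each mouse.

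No member differed between the mice by 1 or more on the log2(TPM + 1) scale. The mean of log2(TPM + 1) over the 48 cells, mouse 2 minus mouse 1, had a median over the members of -0.12, with 11 members higher and 29 lower. The largest differences were 0.69 for Racgap1 and -0.82 for Hmgb2. Over all 8008 genes tested the median was -0.28, with 1.85% of genes higher and 15.3% lower by 1 or more. Racgap1 averaged 51.2 ± 136 TPM in mouse 2 and 22.6 ± 67.8 TPM in mouse 1 (SD over 48 cells each). After a linear fit on detected genes the median turned to 0.37, so its direction is not fixed.

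The members varied together across the cells of each mouse. Their mean pairwise Spearman correlation was 0.53 over the 48 cells of mouse 2 and 0.46 over those of mouse 1, and 780 of 780 pairs were above 0 in both mice. Counting 28 members, those that 10 or more cells per mouse held at 1 TPM, the mean was 0.53 in mouse 2 and 0.48 in mouse 1, and over all 5610 genes that pass this filter it was 0.09 and 0.05. All pairs share their libraries and detection: member-high cells had a median of 4899 genes at 1 TPM or more in mouse 2 and 4897.5 in mouse 1, against 2895 and 3445 in the other cells. After a linear fit on that number the mean over all 40 members was 0.49 in mouse 2 and 0.46 in mouse 1, over the 28 it was 0.49 and 0.44, and over the 5610 genes 0.02 and 0.01. Plk1 and Nusap1 were the closest pair of mouse 2 (0.85, and 0.70 in mouse 1), and Plk1 and Ckap2 that of mouse 1 (0.78, and 0.40 in mouse 2). The 5 weakest pairs of mouse 1 all held Bub3, from 0.05 to 0.12. Cdca8 had a mean correlation of 0.61 (mouse 2) and 0.58 (mouse 1) with the other members, and Bub3 one of 0.39 (mouse 2) and 0.25 (mouse 1). The 62 other G2 and mitosis genes of a second list, 56 of them measurable in mouse 2 and 59 in mouse 1, had means of 0.43 and 0.37.

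Detection bears on these counts. A median of 80% of members were at 10 TPM in a member-high cell of mouse 2 and 76.25% in one of mouse 1, against 6.25% and 10% in the other cells. Over all genes tested the same medians were 43.3% and 45.8% in member-high cells, against 24.1% and 30.7% in the others. The cells picked by the members were therefore also cells with more of all genes detected, and the part of detection in the counts was not tested. No doublet caller was run, and captured cells were inspected visually before lysis.

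Genes outside the set were ranked by their correlation with the members' mean level, after the fit on detected genes and by the weaker of the 2 mice. The 12 highest were Ncapg, Kif15, Cdca3, Ckap2l, Neil3, Kif22, Sgol1, Esco2, Asf1b, Fbxo5, Hist1h2ae and Pbk. Ncapg, a condensin subunit and so a partner of Smc2 and Smc4, had 0.84 in mouse 2 and 0.83 in mouse 1 over 48 cells each. It averaged 122 TPM in member-high cells of mouse 2 and 133 TPM in those of mouse 1, against 2.84 and 0.67 TPM in the other cells. Kif15, a spindle kinesin, had 0.89 in mouse 2 and 0.83 in mouse 1. Sgol1 guards centromeric cohesion and had 0.80 in mouse 2 and 0.77 in mouse 1. Neil3, a DNA glycosylase, and Esco2, a cohesin acetyltransferase, were in neither fixed list of cell cycle genes and had 0.87 and 0.74 in mouse 2, and 0.77 and 0.74 in mouse 1. Hist1h2ae is 1 of many near-identical histone genes, so its reads may be shared and its value is uncertain. In all, 33 of 5582 genes outside the set were at 0.5 or more in both mice. So were 22 of the 28 members that passed the filter. Each member is part of the mean it was compared with, so these counts are not alike. The 6 lowest were Eef1a1, Rps9, Rpl13, Adamts13, Dapp1 and H2-K1. Eef1a1, a translation factor, had -0.58 in mouse 2 and -0.62 in mouse 1, with 9193 and 11463 TPM in member-high cells against 8780 and 13452 TPM in the others, so its direction in TPM differed between the mice.

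The 62 other G2 and mitosis genes picked a subset of the member-high cells. Cells with 31 or more of them at 10 TPM were 8 of the 10 member-high cells in mouse 2 and 7 of the 10 in mouse 1, and no other cell. The 4 most abundant were Stmn1, Cks2, Lbr and Cks1b, and each was at 10 TPM in all 20 member-high cells. They were not restricted to these. Among the 38 other cells of mouse 2 and the 38 of mouse 1, Stmn1 was at 10 TPM in 22 and 29. The counts were 12 and 25 for Cks2, 25 and 25 for Lbr, and 13 and 12 for Cks1b. Stmn1, a tubulin binder, averaged 2976 TPM in member-high cells of mouse 2 and 4897 TPM in those of mouse 1, against 682 and 1392 TPM in the other cells. It also differed by the cell states given below. It averaged 58.6 and 411 TPM in cells with H2-Aa at 1000 TPM or more (H2-Aa-high). In cells with no state marker at 1000 TPM it averaged 3097 and 2963 TPM. Foxm1, a transcription factor of the G2 programme, was at 10 TPM in 4 of 10 member-high cells of each mouse, against 0 of 38 other cells of mouse 2 and 1 of 38 of mouse 1. Mybl2, the MYB partner of MuvB, was at 10 TPM in 4 of 10 member-high cells of mouse 2 and 2 of 10 of mouse 1, and in 2 of 38 others of each mouse. Foxm1 and Mybl2 were named after their values were seen. The 17 cyclin D, CDK inhibitor and antiproliferative genes were at 10 TPM in a median of 41.2% of values in member-high cells of mouse 2. It was 47.1% in those of mouse 1, against 29.4% in the other cells of each. Over all genes tested these medians were 43.3% and 45.8%, against 24.1% and 30.7%, so nothing is read from the list as a whole. Within that list, Btg1, an antiproliferative gene, averaged 132 TPM in member-high cells of mouse 2 and 100 TPM in those of mouse 1, against 771 and 237 TPM in the others. Btg2, its relative, averaged 62.7 and 82.1 TPM, against 501 and 689 TPM. Ccnd2, cyclin D2, was instead higher in member-high cells, with 147 and 234 TPM against 31.7 and 176 TPM. So was Cdk4, the kinase of G1, with 658 and 542 TPM in member-high cells against 169 and 310 TPM. Btg1 and Btg2 also differed by cell state. In mouse 2 they averaged 1011 and 764 TPM in the 19 H2-Aa-high cells. In the 6 cells of mouse 2 with no state marker at 1000 TPM they averaged 79.8 and 23.3 TPM. In the 20 such cells of mouse 1 they averaged 105 and 446 TPM. The part of cell state in these contrasts was not tested.

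S phase genes separated a further group of cells. The 4 most abundant were Pcna, Rrm2, Tipin and Rfc2, and Pcna, the sliding clamp of replication, was at 10 TPM in all 20 member-high cells, against 18 of 38 other cells of mouse 2 and 23 of 38 of mouse 1. Rrm2, a ribonucleotide reductase subunit, was at 10 TPM in 10 of 10 member-high cells of mouse 2 and 9 of 10 of mouse 1, against 7 of 38 and 6 of 38 others. Cells with 17 or more of 33 S phase and replication genes at 10 TPM, but fewer than 20 members, numbered 7 in mouse 2 and 8 in mouse 1. In these 15 cells, 65.6% of the values of the chromosome structure members were at 10 TPM, against 25.4% in the 61 cells low in both lists and 96.7% in the 20 member-high cells. Over all 8008 genes tested the same shares were 35.5% in the 15 cells, 26.7% in the 61 and 42.4% in the 20, with medians of 4059, 2979 and 4899 genes at 1 TPM or more. Hmgb2 was at 10 TPM in 15 of the 15, Smc4 in 13, Smc2 and Tacc3 in 11 each, and Cdk1, Top2a and Bub3 in 9 each. The other role groups, in cells held under 20 members by choice, lay lower. Passenger complex values were at 10 TPM in 25% in the 15 cells and 4.9% in the 61, checkpoint and anaphase-promoting complex values in 24.8% and 10.3%, spindle values in 23.8% and 4.7%, and mitotic entry values in 17.1% and 3.0%. Central spindle and cytokinesis values were at 10 TPM in 6.7% in the 15 cells and 3.3% in the 61, and centromere and kinetochore values in 4.4% and 7.1%. Plk1, Cdc25c, Cenpe, Kif2c, Racgap1 and Ect2 were at 10 TPM in 0 of the 15, which allows a share of up to 20.0%. In the 20 member-high cells the central spindle and cytokinesis values stood at 72.5% and the centromere and kinetochore values at 70%. Member-high cells were mixed in this respect, and 7 of 10 in mouse 2 and 6 of 10 in mouse 1 had 17 or more S phase genes.

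**Figure D2:**
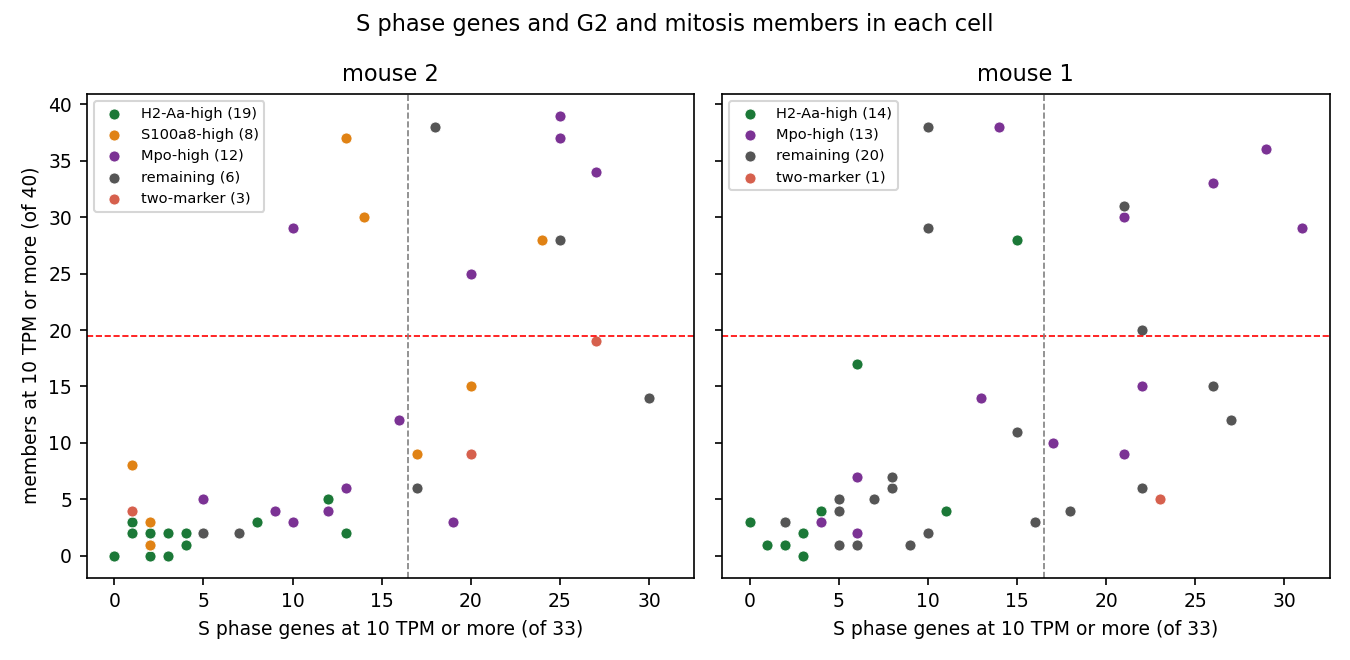
Scatter plot of S phase genes at 10 TPM or more (x axis, of 33) against members at 10 TPM or more (y axis, of 40) in each cell of mouse 2 (left) and mouse 1 (right), coloured by cell state, with dashed lines at 17 S phase genes and 20 members. The 7 cells of mouse 2 and 8 of mouse 1 at the lower right have many S phase genes and few members, and no H2-Aa-high cell lies right of the vertical line.

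**Figure D3:**
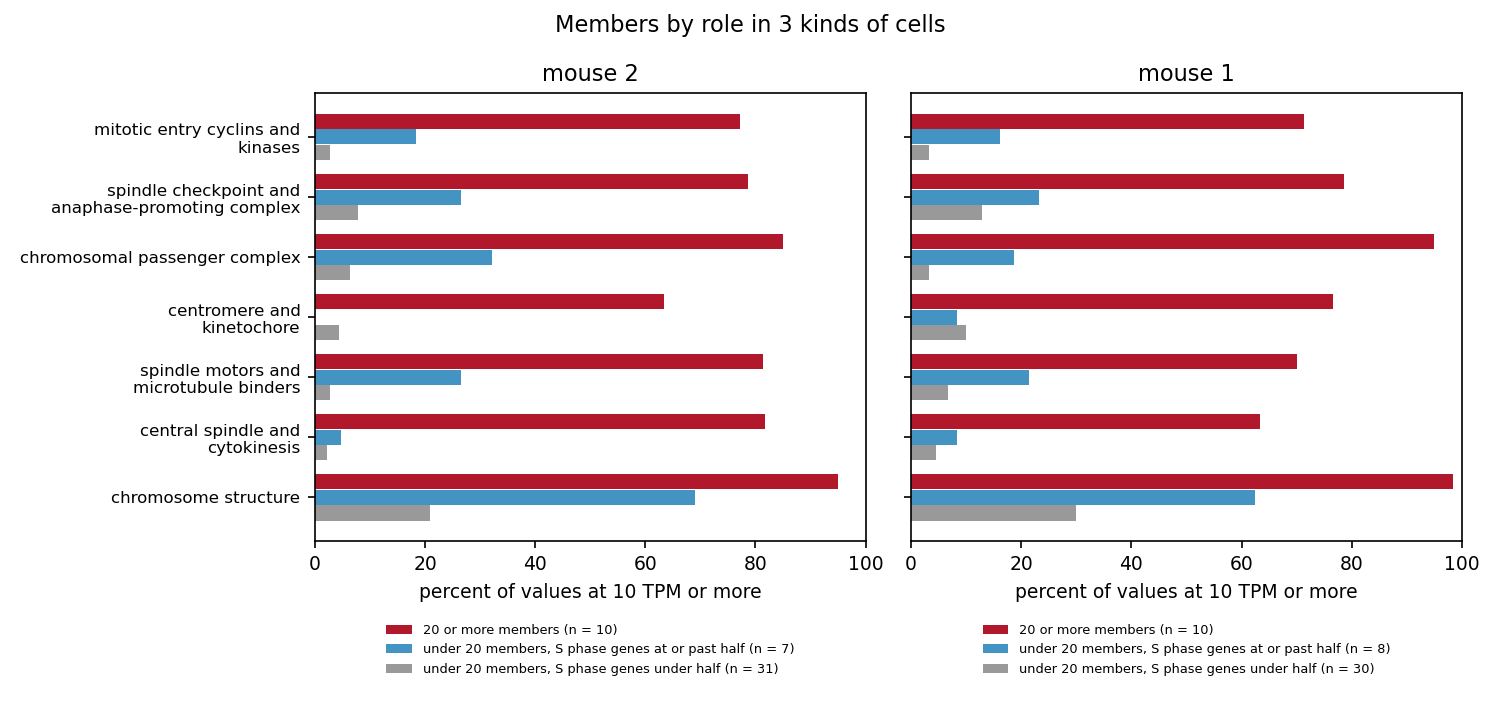
Percent of values at 10 TPM or more for each role group of members, in member-high cells (red), cells with 17 or more S phase genes and under 20 members (blue) and cells low in both (grey), for mouse 2 (left) and mouse 1 (right). Each bar pools the genes of a role and the cells of a kind and has no error, and the blue bars exceed 60% in the chromosome structure group of each mouse.

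Cell states were set by H2-Aa (MHC class II), S100a8 (neutrophil) or Mpo (promyelocyte and progenitor) at 1000 TPM or more. Cells past 2 markers, 3 in mouse 2 and 1 in mouse 1, were kept apart. Member-high cells were nearly absent among the H2-Aa-high cells: 0 of 19 in mouse 2 (a share of up to 15.8% is allowed by such a count), and 1 of 14 in mouse 1 (7.14%, 0.181 to 33.9%). Among Mpo-high cells they were 5 of 12 in mouse 2 (41.7%, 15.2 to 72.3%) and 5 of 13 in mouse 1 (38.5%, 13.9 to 68.4%). Among the remaining cells, with no marker at 1000 TPM, they were 2 of 6 in mouse 2 (33.3%, 4.33 to 77.7%) and 4 of 20 in mouse 1 (20%, 5.73 to 43.7%). S100a8-high cells, leaving aside cells past 2 markers, were found in mouse 2, and 3 of these 8 were member-high (37.5%, 8.52 to 75.5%). H2-Aa-high cells also had 0 of 19 in mouse 2 and 0 of 14 in mouse 1 with 17 or more S phase genes.

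**Figure D4:**
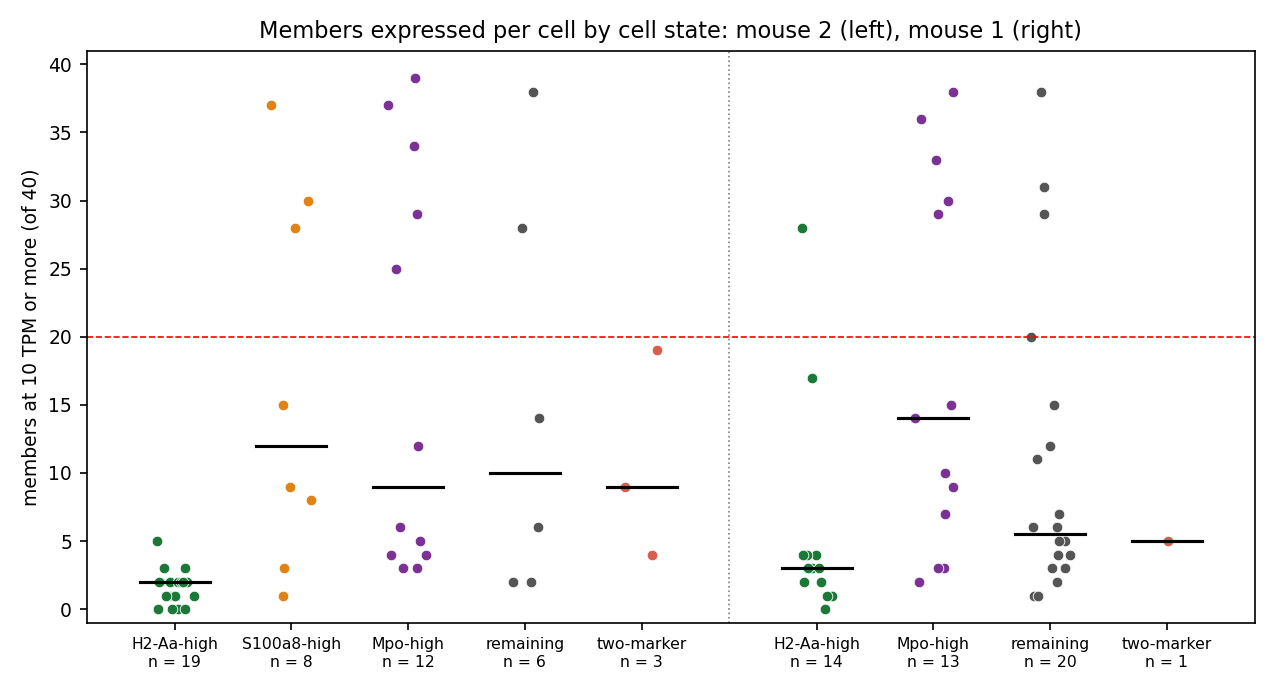
Members at 10 TPM or more (y axis, of 40) in each cell (points) by cell state, with mouse 2 on the left and mouse 1 on the right, short lines at the medians and a dashed line at 20 members. The 19 H2-Aa-high cells of mouse 2 have 0 to 5 members, and 13 of the 14 of mouse 1 lie under the line.

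In both mice every member averaged lower in H2-Aa-high than in Mpo-high cells on the log2(TPM + 1) scale. The median difference over the members was -2.64 in mouse 2, with 39 of 40 lower by 1 or more, against 50.2% of all genes tested and a median of -1.01 over them. In mouse 1 it was -1.98, with 35 of 40 lower by 1 or more, against 48.4% of genes and a median of -0.94. Top2a had a highest value of 1.55 TPM in 19 H2-Aa-high cells of mouse 2, against a median of 11.6 TPM (0 to 814) in 12 Mpo-high cells. In mouse 1 it was at 10 TPM in 3 of 14 H2-Aa-high cells and 9 of 13 Mpo-high cells. Cdk1 was at 10 TPM in 0 of 19 H2-Aa-high and 5 of 12 Mpo-high cells of mouse 2, and in 1 of 14 and 9 of 13 of mouse 1. Hmgb2 had the largest differences, -4.90 in mouse 2 and -3.87 in mouse 1. Of the other cell cycle genes, ranked by the smaller of the differences in the 2 mice, Stmn1, Cks2 (a Cdk-binding subunit), Lbr (the lamin B receptor) and Ccnd2 (cyclin D2) came first. Their values were for Stmn1 (-7.38 in mouse 2, -6.66 in mouse 1), Cks2 (-5.51, -6.30), Lbr (-5.41, -5.53) and Ccnd2 (-5.51, -5.05).

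The depth of detection moved with this difference. H2-Aa-high cells had a median of 2636 genes at 1 TPM or more in mouse 2 and 2921.5 in mouse 1, against 4041 and 4463 in Mpo-high cells. After a linear fit on that number, the members' median difference was 0.08 in mouse 2 and 0.39 in mouse 1, so the members were not lower in that fit. No cell with fewer than 3010 genes was member-high. Among cells with 3010 to 3864 genes, the range where H2-Aa-high cells and member-high cells both occurred, 1 of 8 H2-Aa-high cells and 4 of 21 other cells of both mice were member-high (12.5%, 0.316 to 52.7%, and 19.05%, 5.45 to 41.9%). The 8 S100a8-high cells of mouse 2 had a median of 2616.5 genes, and their 3 member-high cells, with 3010 to 3897 genes, were the only 3 of them with at least 3010. The part of detection in these differences was not tested.

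Compared with the remaining cells, H2-Aa-high cells were lower by a median of -2.22 in mouse 2. There 36 of 40 members were lower by 1 or more (43.8% of all genes). In mouse 1 the median was -0.91, with 17 of 40 lower by 1 or more, a share near the 36.9% of all genes. H2-Aa-high cells had a median of 2636 genes at 1 TPM or more in mouse 2 and 2921.5 in mouse 1. Remaining cells had 4251.5 and 3587.5. The part of detection in this contrast was not tested. Stmn1 (-8.32 in mouse 2, -7.02 in mouse 1), Lbr (-5.79, -4.58), the replicative helicase subunit Mcm6 (-5.17, -4.41) and the clamp loader subunit Rfc2 (-4.06, -4.10) came first among the other cell cycle genes by the smaller difference of the 2 mice, where single mice had larger ones, such as Pcna at -6.50 in mouse 2. Between Mpo-high and remaining cells the mice differed in size: the median was 0.20 in mouse 2, with 9 members higher and 4 lower by 1 or more (25.7% and 16.7% of all genes, median 0.21), and 1.10 in mouse 1, with 22 higher and 0 lower (26% and 6.7% of all genes, median 0.33). The value of mouse 2 rests on 6 remaining cells and ran from -0.29 to 1.03 when single cells were left out, and that of mouse 1 was -0.032 with markers at 500 TPM. Kif23 was highest in mouse 1, at 3.85, with 8 of 13 Mpo-high and 1 of 20 remaining cells at 10 TPM, against -0.66 in mouse 2. By the same rank, the other cell cycle genes with the largest differences of 1 sign were the pocket protein gene Rbl1 (-1.93 in mouse 2, -1.93 in mouse 1), Cks2 (3.04, 1.88), Cdca3 (1.83, 2.65) and Fam64a (1.75, 1.73).

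In mouse 2, the 3 member-high cells among the 8 S100a8-high cells carried neutrophil transcripts together with many mitotic ones. Taking the 8 together, 34 of 40 members were higher by 1 or more than in H2-Aa-high cells (19.1% of all genes). The median difference was 2.33, against -0.09 over all genes. Against the remaining cells the median was 0.35, with 10 members higher and 6 lower by 1 or more (11.3% and 45.8% of all genes), where all genes had a median of -0.83. The members most often at 10 TPM in the 8 S100a8-high cells were Hmgb2, in 8, and Cdk1, Birc5 and Mki67, in 6 each. Many others were seen in fewer of the 8. Top2a was at 10 TPM in 5, Plk1, Prc1 and Aurkb in 3 each, and Ccna2, Ccnb2 and Cdc20 in 2 each. Aurka, Cenpf, Ect2 and Ttk were at 10 TPM in 1 each. Ckap2 was in 0 of 8 and 4.41 lower than in the remaining cells. The most complete of these cells had 37 members, with S100a8 at 117755 TPM and the granule genes Ngp at 91059 and Camp at 66377 TPM. The other 2 member-high cells of this state had 30 and 28 members, and the cell with 28 also had Elane, a protease of earlier granulocyte precursors, at 7429 TPM. Not all neutrophil markers were high. In the 10 member-high cells of mouse 2, Ltf and Lcn2 reached 17528 and 16891 TPM, while Mmp8 was at 0 and Retnlg reached 283 TPM. In the other cells of mouse 2 Mmp8 and Retnlg reached 3343 and 35146 TPM. A few abundant genes take much of the TPM of S100a8-high cells: the 10 most abundant held a median of 56.2%, against 9.53% in the remaining cells. With TPM rescaled without those 10 genes the median against the remaining cells was 0.83.

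The single H2-Aa-high cell of mouse 1 with many members had 28 of 40, 3864 genes, H2-Aa at 20801 TPM and the dendritic markers Cd74 at 15042, Xcr1 at 1198, Batf3 at 535 and Clec9a at 118 TPM, with Mpo and S100a8 both under 1000 TPM. A member-high cell of mouse 1 with 20 members had the megakaryocyte gene Pf4 at 22960 TPM, and the 6 megakaryocyte markers summed to at most 207 TPM in the other 9 member-high cells of that mouse and 3.17 TPM in the 10 of mouse 2. Without this cell 9 of 47 cells of mouse 1 were member-high. The B cell list summed to at most 488 TPM in member-high cells of mouse 2 and 305 TPM in those of mouse 1, the erythroid list to 223 and 720 TPM, and the mast cell list to 517 and 460 TPM. Of 7 T and NK cell markers, Nkg7 was at 10 TPM in 10 of 10 member-high cells of mouse 2 and 9 of 10 of mouse 1. It was also at 10 TPM in 13 of 38 and 24 of 38 other cells. Cd4 was at 10 TPM in 1 member-high cell of mouse 2 (150 TPM). Klrb1c was so in 1 member-high cell (119 TPM) and 1 other cell (44.2 TPM) of mouse 1. Cd3d was at 10 TPM in 1 other cell of mouse 2 (499 TPM). Cd3e, Cd3g and Ncr1 were at 0 in all cells.

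Kit, the receptor used for selection, was seen in member-high and in other cells. It was at 10 TPM in 5 of 10 member-high cells of mouse 2 and 8 of 10 of mouse 1, against 17 of 38 and 25 of 38 other cells. Its mean was 16.9 TPM (highest 68.5) in member-high cells of mouse 2 and 96.1 TPM (highest 190) in those of mouse 1, against 99.8 TPM (highest 932) and 158 TPM (highest 1053) in the other cells. Its Spearman correlation with the members' mean level was -0.09 in mouse 2 and 0.05 in mouse 1, and -0.30 and -0.10 after the fit on detected genes. Flt3 was at 10 TPM in 4 of 10 and 6 of 10 member-high cells, against 16 of 38 and 14 of 38 others. Dnmt3a was at 10 TPM in 1 of 10 and 4 of 10, against 11 of 38 and 10 of 38. For Cd34, a progenitor marker, the counts were 6 of 10 and 9 of 10, against 12 of 38 and 23 of 38. Intervals of member-high and other cells overlapped for Kit, Flt3, Dnmt3a and Cd34 in each mouse. Of all genes tested, a median of 43.3% (mouse 2) and 45.8% (mouse 1) were at 10 TPM in member-high cells. In the other cells it was 24.1% and 30.7%.

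Low member values were patterned by cell number, which limits what they show. In the 76 cells under 20 members, 65.5% of member values were 0 and 22.7% lay above 0 and below 10 TPM, with a median of 0.42 TPM among these. Some of these positions hold few cells. Those whose number leaves a remainder of 2 after division by 8 had a median of 18.5 such low members in mouse 2 (2 cells). In mouse 1 it was 19.5 (4 cells). Cells with a remainder of 5 had 4.5 and 4 (6 cells in each mouse). The same positions held different numbers of member-high cells: 16 of the 20 had a remainder of 2, 3 or 6, and 0 a remainder of 1 or 5. Members at 10 TPM in the same 76 cells, which all have under 20 by choice, also varied by position. The highest medians were 6 at remainder 7 in mouse 2 (5 cells) and 11 at remainder 6 in mouse 1 (3 cells). At remainder 6 the median of mouse 2 was 5.5 (4 cells). At remainder 2 the medians were 2 in mouse 2 and 4 in mouse 1, and at remainder 5 they were 2 and 3. H2-Aa was never at 0 in any cell, with a lowest value of 1.03 TPM. The cause of the pattern was not tested. Values under 10 TPM are left out of the counts of members at 10 TPM, but not out of every result. They enter the differences of mean log2(TPM + 1) and the main correlations. Detection and the gene filters, set at 1 TPM, also take in those that reach this level. These results may therefore carry part of the pattern. With values under 10 TPM set to 0, the mean pairwise correlation was 0.58 in mouse 2 and 0.51 in mouse 1.

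**Figure D5:**
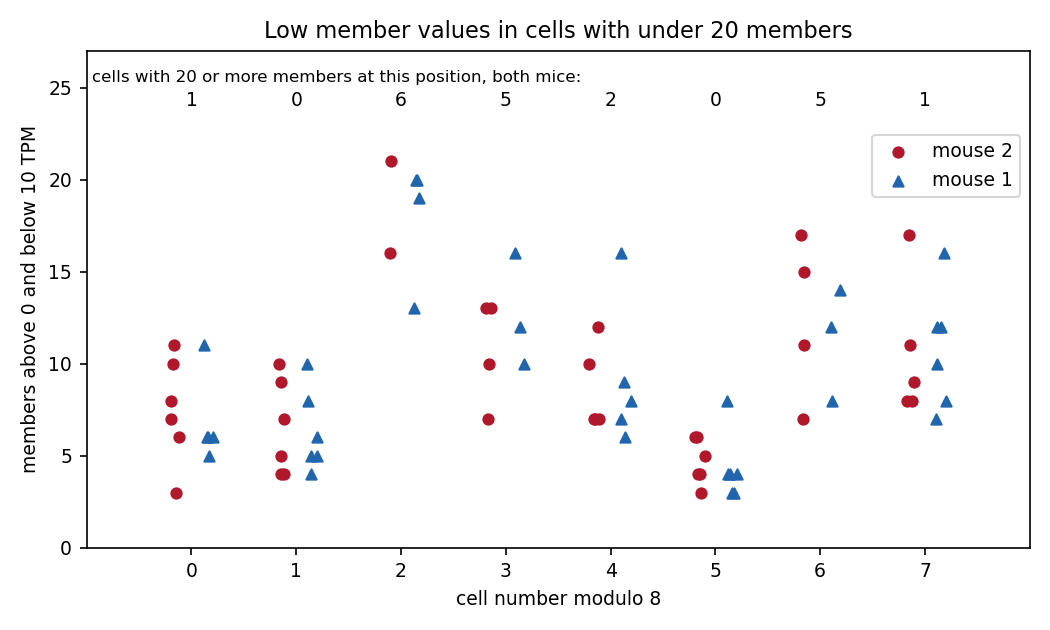
Members above 0 and below 10 TPM (y axis) in each of the 76 cells with under 20 members, by cell number modulo 8 (x axis), for mouse 2 (circles) and mouse 1 (triangles), with the number of member-high cells of both mice at each position printed on top. Cells at position 2 have 13 to 21 such members and those at position 5 have 3 to 8, and 6 and 0 member-high cells stand at these positions.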

How the data were processed

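The authors deposited a table of TPM (transcript abundance scaled to a common total per cell, RSEM by its name) for 23955 gene symbols and a table of RPKM (AltAnalyze by its name) for 9310 Ensembl IDs, 1 column for each of 96 cells. TopHat2, RSEM, Bowtie2 and the builds mm10 and mm9 are named in the submitters' processing notes, with no version or role. Main values used TPM. The deposited RPKM values, mostly at a floor, served as an alternative for the 38 members held there after 9210 IDs were matched to symbols. TPM keeps no depth, so genes at 1 TPM or more stood in for it. A gene was tested when at 1 TPM in at least 5 cells of each mouse (within-mouse comparisons: of that mouse), which left 8008 genes over both mice. All 40 members passed in mouse 2 and 38 in mouse 1, and medians are over all 40. Differences are of mean log2(TPM + 1) over cells, which understates the change of low genes. Shares carry exact Clopper-Pearson 95% intervals, and for a share of 0 the limit is that of 3 cells. Correlations are Spearman's, with and without a linear fit on genes at 1 TPM, among genes at 1 TPM in at least 10 cells of each mouse where all genes are given. The columns of both tables were mapped to cells by name, with 0 left unmapped, and 0 pairs of libraries were identical. The members, gene lists and thresholds were chosen with earlier results of these data known. All 40 members are named or counted by role. Outside them, the text names the 12 most and 6 least correlated genes, the 4 most abundant of each cell cycle list, the 4 with the largest difference of the same sign in both mice in each state contrast (by the smaller of the mice's differences), Kit, Flt3, Dnmt3a and the state markers. The difference and the mean pairwise correlation were tried on values of these cells shuffled within each mouse, with known shifts added to some genes. Recovery of the shift was fixed by that construction, and the other steps were not tried this way. Python 3.11.15 was used with numpy 2.4.6, pandas 2.3.3, scipy 1.17.1 and matplotlib 3.10.9.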

Additional observations from a re-analysis of the deposited data

Results flagged for a closer look

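Of the members, 2 had opposite signs in the mice in the same state contrast, each past 1 on the log2(TPM + 1) scale. Tacc3, Mpo-high minus remaining cells, was -1.25 in mouse 2 and 1.53 in mouse 1. Anln, in the same contrast, was -1.48 in mouse 2 and 1.37 in mouse 1. With 1 mouse a side the difference between the mice was not tested, and mouse 2 had 6 remaining cells. The groups small enough to be looked at were the 8 S100a8-high and the 6 remaining cells of mouse 2. No cell there stood apart from its group in members at 10 TPM or in summed member TPM.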

How the results depend on the processing

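Of 118 alternative values of 10 results, 80 stayed close to the main value, 29 moved and 9 changed sign. The cause was not tested. A share was called close when inside the 95% interval of the main value, which is wide. With 30 or more members asked for, 6 of 48 cells of each mouse were left, which was counted as close. A correlation or difference was called close when it kept its sign and lay within a set ratio of the main value. The alternatives with low values set to 0, without S100a8-high cells, with other G2 and mitosis genes, and without the Pf4 cell were added after seeing the data. The share of member-high cells was 10.4% in mouse 2 and 8.33% in mouse 1 with members counted at 100 TPM, 35.4% in mouse 1 with 10 or more members asked for, and 19.1 to 21.3% in each mouse with each cell left out. The mean correlation of members was 0.257 in mouse 2 and 0.236 in mouse 1 in the RPKM table, and ran from 0.50 to 0.54 and from 0.43 to 0.47 with each cell left out. The median difference of mouse 2 minus mouse 1 was 0.37 after the linear fit on detected genes, -0.0026 in RPKM, -0.23 with log2(TPM + 0.1), -0.072 rescaled without the 10 most abundant genes, -0.28 without S100a8-high cells, and -0.22 to 9.7e-05 with each cell left out. H2-Aa-high minus Mpo-high was 0.083 in mouse 2 and 0.39 in mouse 1 after the fit, -0.077 and -0.14 in RPKM, -1.41 and -1.03 with log2(TPM + 10), -1.31 in mouse 1 with markers at 500 TPM, and -2.88 to -2.24 and -2.38 to -1.74 with each cell left out. Mpo-high minus remaining was -0.32 in mouse 2 and 0.0069 in mouse 1 after the fit, 0.022 and 0.035 in RPKM, and 0.11 and 0.60 with log2(TPM + 10). It was also 0.060 in mouse 2 with cells past 2 markers kept, 0.43 in mouse 2 with values under 10 TPM set to 0, and -0.032 and 0.32 in mouse 1 with markers at 500 and 2000 TPM. With each cell left out it ran from -0.29 to 1.03 in mouse 2 and from 0.80 to 1.399 in mouse 1, the extremes of mouse 2 being without cells 69 and 83, both remaining cells. S100a8-high minus remaining was 2.42 after the fit, 0.077 in RPKM, 0.20 with log2(TPM + 10), 0.83 rescaled, -0.079 with markers at 500 TPM, and -0.22 to 1.01 without cells 69 and 83. Rescaling moved the median of all genes from -0.83 to -0.60 in that comparison. No paired analysis was possible because each mouse is 1 sample and cell numbers pair no cells. Depth is unknown, so a member at 0 in a cell may be unseen and not absent.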
